A study of Drosophila melanogaster with 6 samples.

Results

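Serpins are serine protease inhibitors that present a reactive loop to a target protease, are cleaved in it and trap the protease in an inactive complex, each molecule being spent in the act. In Drosophila, secreted serpins are best known as brakes on the protease cascades of the blood and trachea that activate the Toll receptor and the melanin-forming phenoloxidases. The midgut, which secretes large amounts of digestive serine proteases, also transcribes members of the family. The genes described here are 10 serpins named by their current FlyBase symbols: Spn55B, Spn27A, Spn28Dc, Spn77Ba, nec, Spn88Ea, Spn88Eb, Spn42De, Spn43Aa and Spn42Da. Of these, 9 were measured, out of 15682 gene identifiers in the count tables. The current identifier of Spn42Da matched no identifier of the tables, so this gene was not analysed here. Spn27A and Spn28Dc lie on arm 2L, nec, Spn42De, Spn43Aa and Spn55B on 2R, Spn77Ba on 3L, and Spn88Ea and Spn88Eb on 3R.

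RNA-seq was done on dissected midguts of virgin adult flies of the w1118 strain, 15 days old and reared at 29 °C, in 3 libraries from females and 3 from males. Each library pooled 30 midguts, and both sexes shared strain, age, virgin state and rearing. The comparison asks which of these serpins differ in RNA level between the sexes. Pools of whole midguts cannot tell fewer cells of a type from less RNA per cell. The labels do not state whether replicate pools were drawn from separate cultures, so each p-value reflects pool-to-pool spread alone, some of which may be technical.

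Libraries held 23825935 to 33278485 counts in females and 30600544 to 38406746 in males. Levels are given as CPM, counts scaled to the total of the library, and between genes as CPM per kb of annotated exon. A count of 3, the upper limit that a count of 0 allows, stood for 0.0901 to 0.126 CPM in females and 0.0781 to 0.0980 CPM in males; intervals and floors cover counting error only. The libraries carried midgut RNA: the 5 enterocyte markers (nub, Myo31DF, alphaTry, betaTry and Jon65Aiv) summed to 64562 to 73437 CPM in females and 53656 to 65606 CPM in males. Male replicate 3 also held counts of male reproductive tract genes. The 5 matched accessory gland markers came to 1133 counts there, against 5, 0 and 0 in the females and 0 and 0 in male replicates 1 and 2. The 4 testis markers had 160 counts in male replicate 3, against 3 and 17 in male replicates 1 and 2 and 0 in each female library.

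Spn55B and Spn27A were lower in the female than in the male midgut, and no measured serpin of the set was called higher in females. Across all genes tested, 3.87% were called higher in females and 5.53% higher in males (edgeR, adjusted p under 0.05). Of the 9 measured serpins, 7 passed the filter on low counts, and 0 of these were called higher in females, 2 higher in males and 5 in neither direction. DESeq2 and limma-voom also called 2 each as higher in males, where they called 7.35% and 5.4% of all genes so. In the edgeR test with TMM scaling, none of the set passed an adjusted p under 0.01, which 4.61% of genes did in either direction. Among the 7 tested, 6 fold changes lay below 0 and the median was -0.29 on the log2 scale of female over male, beside a median of -0.02 over 8941 genes, of which 52.8% lay below 0. The libraries of the sexes did not overlap in CPM for 2 of the 7, with males above females in both cases, where 25.7% of all tested genes had no overlap and 16.4% had males above. With so few members these shares describe the list and single out nothing about it.

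**Figure D1:**
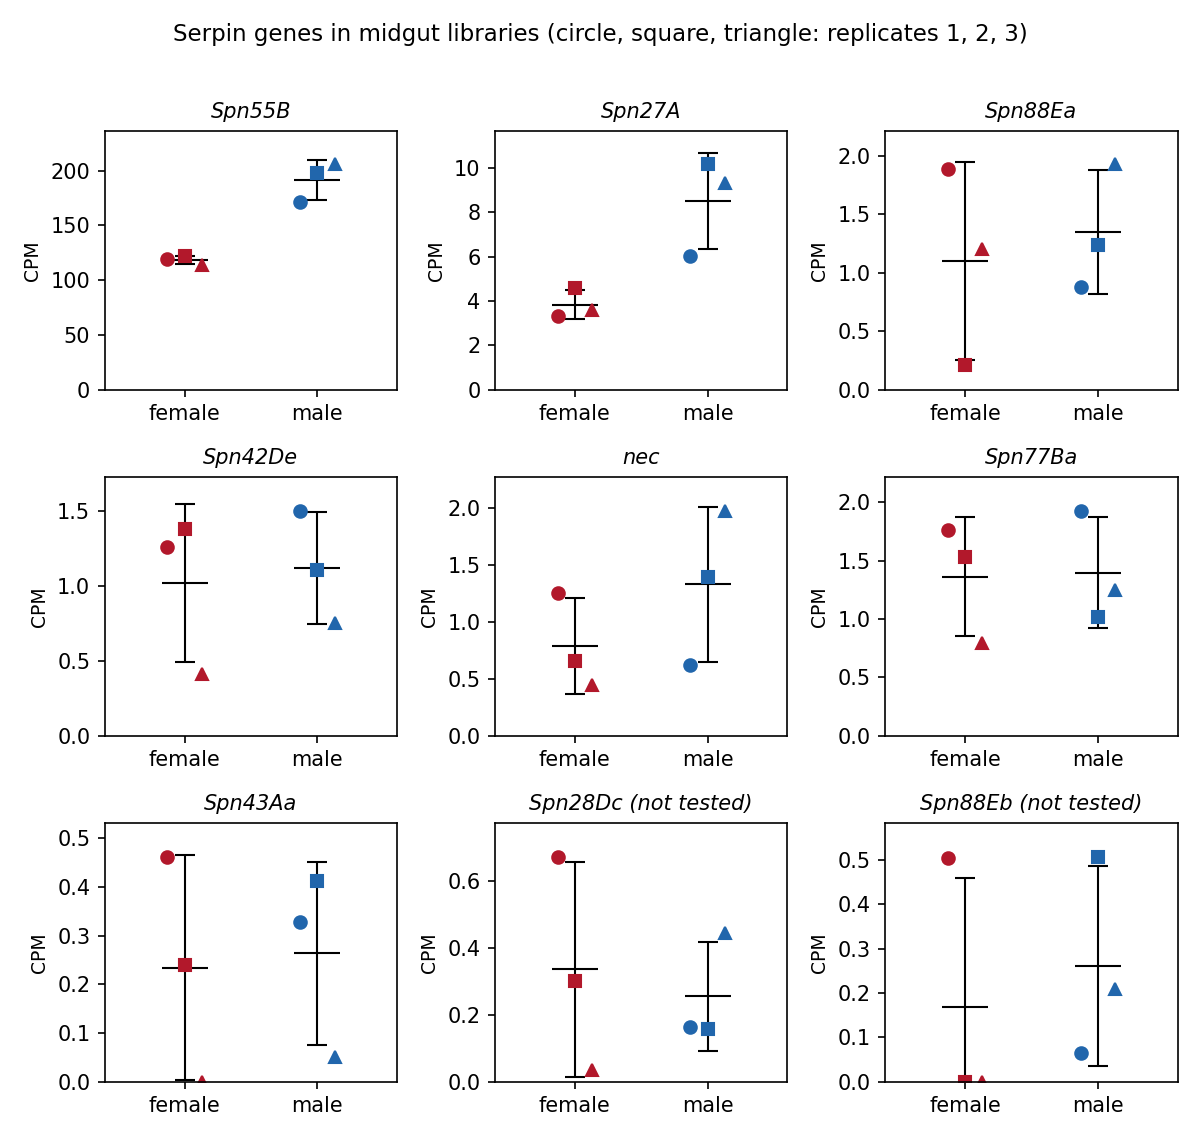
CPM of the 9 measured serpin genes in each midgut library, females left and males right of each panel, with the mean and SD over 3 libraries as black bars (cut at 0) and a separate linear axis for each gene. Spn55B and Spn27A have all male libraries above all female libraries, and the other 7 genes stay under 2 CPM with overlapping sexes.

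A single gene supplied most of the serpin counts. Spn55B made up 91.5%, 93.2% and 94.6% of the counts of the 9 serpins in females and 93.7%, 92.5% and 92.8% in males, with 95% Wilson intervals between 90.4% and 95.3%. The 9 genes together reached 127 ± 5.77 CPM in females and 206 ± 20.8 CPM in males (mean ± SD, n = 3 each). Without Spn55B the other 8 summed to 8.85 ± 2.31 CPM in females and 14.5 ± 2.56 CPM in males. The sum was thus set almost wholly by Spn55B, and its size says little of the rest.

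Spn55B stood at 119, 122 and 114 CPM in female replicates 1 to 3, against 171, 198 and 206 CPM in male replicates 1 to 3. Every male library was above every female library, and the 95% Wilson interval of the highest female library, 118 to 126 CPM, lay clear of that of the lowest male library, 166 to 176 CPM. The means were 118 ± 4.04 CPM in females and 192 ± 18.3 CPM in males (mean ± SD, n = 3 each). Expression was lower in females, with a log2 change of -0.64 ± 0.14 (edgeR adjusted p = 0.0134), equal to a level 1.55-fold higher in males. DESeq2 and limma-voom gave adjusted p of 0.00051 and 0.014. The call did not hold without female replicate 1 (edgeR adjusted p = 0.0792, log2 -0.61), female replicate 3 (0.0718, log2 -0.59) or male replicate 2 (0.0586, log2 -0.63). Without male replicate 3, the library with accessory gland marker counts, Spn55B kept its call (log2 -0.57, edgeR adjusted p = 0.0239).

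Per kb of exon, Spn55B was also the most abundant serpin measured, at 91.3 ± 3.11 CPM per kb in females and 148 ± 14.1 in males (mean ± SD, n = 3 each), the 92.6th percentile of all tested genes. Spn27A came next among the set, at 1.68 ± 0.294 CPM per kb in females and 3.73 ± 0.955 in males. In level per kb, Spn55B stood 46.8 to 63.2 times above Spn27A in the female libraries and 34.3 to 49.8 times in the male libraries. Below Spn27A, the means of Spn88Ea, Spn42De, nec and Spn77Ba lay between 0.483 and 0.724 CPM per kb in females and between 0.646 and 0.886 in males. Those 4 neighbours in the order differed by less than their spread. Spn43Aa, Spn28Dc and Spn88Eb came last, with 0.117 to 0.187 CPM per kb in females and 0.142 to 0.204 in males, again closer together than their spread. Spn88Eb stood at the 2.25th percentile of tested genes and Spn77Ba at the 12.5th.

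**Figure D2:**
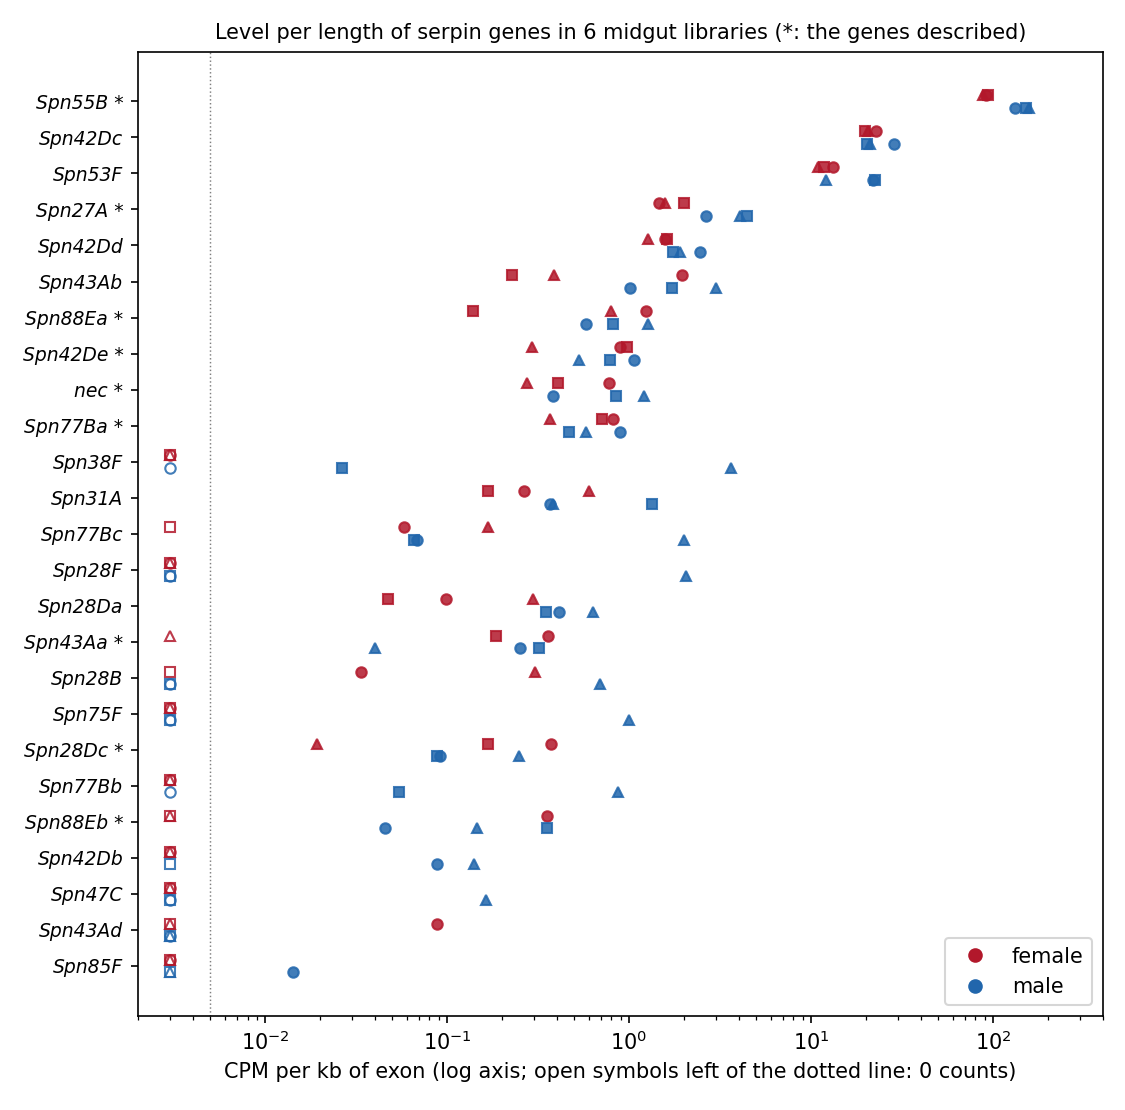
CPM per kb of exon (log axis) for serpin genes with at least 1 count, red for female and blue for male libraries, with circles, squares and triangles for replicates 1, 2 and 3 and asterisks at the genes described. Spn55B lies above every other serpin in all 6 libraries, and open symbols left of the dotted line mark libraries with 0 counts.

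The serpins that restrain melanization are Spn27A, Spn28Dc and Spn77Ba. Spn27A holds back the activation of phenoloxidase in the blood and, in the embryo, limits the protease Easter, which sets the dorsoventral axis. It had 3.32, 4.60 and 3.62 CPM in females, against 6.05, 10.2 and 9.35 CPM in males. No female library reached the lowest male library, male replicate 1, although female replicate 2 came near it: their 95% Wilson intervals were 3.92 to 5.39 and 5.23 to 6.98 CPM. Spn27A was lower in females (log2 -1.08 ± 0.27, 3.84 ± 0.670 CPM in females and 8.52 ± 2.18 CPM in males, mean ± SD, n = 3 each, edgeR adjusted p = 0.0268), which makes it 2.11-fold higher in males. DESeq2 and limma-voom gave adjusted p of 0.00562 and 0.0483.

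The call of Spn27A rested on nearly the whole set of libraries. It was lost without female replicate 1 (edgeR adjusted p = 0.110, log2 -0.95), female replicate 3 (0.100, log2 -1.01), male replicate 2 (0.129, log2 -0.95) or male replicate 3 (0.0640, log2 -0.99). Male replicate 3 is also the library with accessory gland marker counts. The fold change itself stayed between -1.29 and -0.95 in the 6 fits that left out a library. Counted against Spn55B in the same library, a ratio free of library scaling, Spn27A had 2.79, 3.76 and 3.17 counts per 100 of Spn55B in females and 3.54, 5.13 and 4.55 in males, with the sexes overlapping.

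**Figure D3:**
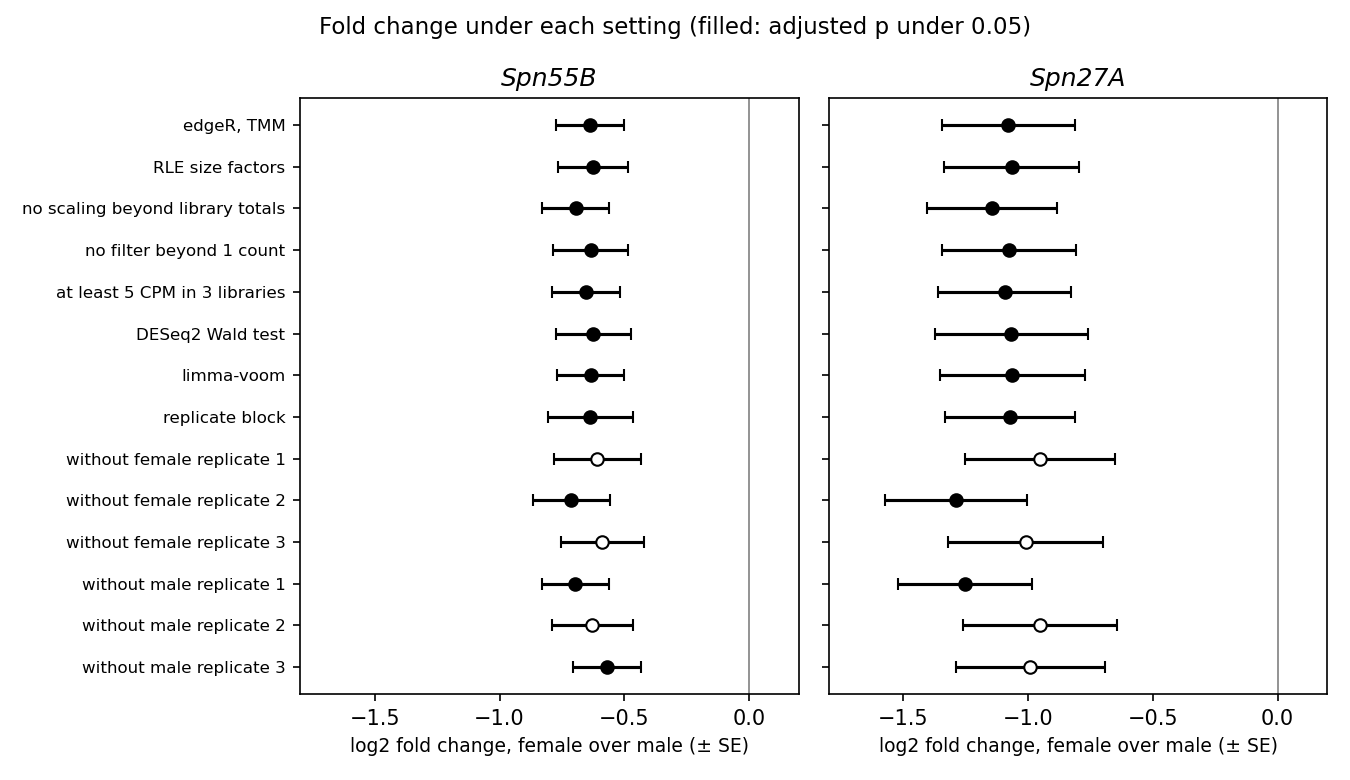
Log2 fold change of female over male (± SE) for Spn55B and Spn27A in the edgeR test as reported and in 13 alternatives, with filled points where the adjusted p was under 0.05. All fold changes lie below 0, between -0.71 and -0.57 for Spn55B and between -1.29 and -0.95 for Spn27A, and open points are fits that leave out a library.

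Spn77Ba, which prevents melanization of the trachea, stood at 1.76, 1.53 and 0.792 CPM in females and 1.93, 1.01 and 1.25 CPM in males. The sexes overlapped and the log2 change was 0.02 ± 0.51 (edgeR adjusted p = 0.989), an error wide enough to hide a change of the size seen for Spn55B. An antisense RNA covers 4.35% of its exon length on the other strand. Spn28Dc, a further inhibitor of phenoloxidase activation, had 16, 10 and 1 counts in females and 5, 5 and 17 counts in males. It failed the filter on low counts and was not tested. Its 0.335 ± 0.320 CPM in females and 0.255 ± 0.163 CPM in males overlapped (mean ± SD, n = 3 each).

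The serpins that restrain Toll signalling are nec and Spn88Ea. nec, named necrotic for the dark spots of mutant flies, blocks Toll activation through the protease Persephone. It had 1.26, 0.661 and 0.448 CPM in females and 0.621, 1.39 and 1.98 CPM in males. The sexes overlapped, with a log2 change of -0.72 ± 0.63 (edgeR adjusted p = 0.610). Without male replicate 3, the highest library, the log2 value was -0.29 (edgeR adjusted p = 0.901). Spn88Ea, a negative regulator of Toll that is also needed for the adult wing to unfold, had 1.89, 0.210 and 1.21 CPM in females and 0.882, 1.23 and 1.93 CPM in males. Female replicate 2 lay far below the other libraries of this gene, and the log2 change was -0.29 ± 0.69 (edgeR adjusted p = 0.890). Its sign turned without female replicate 2 (log2 0.19, edgeR adjusted p = 0.908) and without male replicate 3 (0.08, adjusted p = 0.980).

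Spn42De, Spn43Aa and Spn88Eb completed the set. Spn42De had 1.26, 1.38 and 0.413 CPM in females and 1.5, 1.11 and 0.755 CPM in males (log2 -0.06 ± 0.61, edgeR adjusted p = 0.976). Spn43Aa had 11, 8 and 0 counts in females and 10, 13 and 2 counts in males (log2 -0.11 ± 1.19, edgeR adjusted p = 0.979). The 0 in female replicate 3 allows up to 0.103 CPM, and CG12828 overlaps 8.96% of its exon length on the opposite strand. Spn88Eb had 12, 0 and 0 counts in females and 2, 16 and 8 in males, and was not tested. These 3 genes had overlapping sexes. Neither they nor the other uncalled members are shown to be equal in the sexes.

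The coefficients of variation of the 7 members other than Spn55B and Spn27A, between the libraries of a sex, ran from 37.2% to 173% in females and from 33.4% to 86.6% in males, where counting error alone would give 16.1% to 50% in females and 14.6% to 34.6% in males. Spn55B varied by 3.41% in females and 9.54% in males.

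Several members of the set sit next to other serpins in the annotation. Spn42Da, Spn42Db, Spn42Dc, Spn42Dd and Spn42De follow each other on 2R with 0 protein-coding genes between them. Spn42Dc had 35.8 ± 2.56 CPM in females and 39.8 ± 7.99 CPM in males, and Spn42Db had 0 counts in each female library and 4, 0 and 8 counts in males. Spn43Ab, Spn43Ad and nec also lie side by side on 2R, and Spn88Ea beside Spn88Eb on 3R. Spn43Ad had 3 counts in all, in female replicate 1, while Spn43Ab had 2.60, 0.300 and 0.517 CPM in females and 1.34, 2.28 and 3.98 CPM in males.

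Beyond the set, 18 serpins of the same naming scheme were in the tables; 16 had at least 1 count and 6 were tested. None of the 6 was called by edgeR, DESeq2 or limma-voom, and 1, Spn53F, had an unadjusted p under 0.05 in edgeR, as did 21% of all tested genes. Their 6 fold changes all lay below 0, with a median of -0.77. Over all tested genes, 52.8% lay below 0 and the median was -0.02. Spn53F had 404, 500 and 404 counts in females (15.3 ± 1.54 CPM), against 857, 911 and 591 counts in males (24.1 ± 7.54 CPM, SD, n = 3 each; log2 -0.59 ± 0.22, edgeR adjusted p = 0.132). Without male replicate 3, which at 15.4 CPM lay within the female range, it was called lower in females (log2 -0.83, edgeR adjusted p = 0.00667). The other 12 alternatives did not call Spn53F. Its log2 value was -0.45 without male replicate 1 (edgeR adjusted p = 0.348) and -0.46 without male replicate 2 (0.419). An antisense RNA covers 100% of its exon length, so its counts could include that RNA. Spn28Da had a log2 change of -1.61 ± 0.85 (edgeR adjusted p = 0.331). With libraries left out it ran from -2.60 without female replicate 3 (adjusted p = 0.204) to -1.20 without female replicate 2 (0.517). For Spn43Ab the log2 change was -1.16 ± 0.73 (edgeR adjusted p = 0.433). It ran from -2.57 without female replicate 1 (adjusted p = 0.0440) to -0.65 without male replicate 3 (0.750). That fit without female replicate 1 was the only 1 of 12 alternatives to call Spn43Ab. Spn42Dd, which takes part in the control of Toll during fungal infection, had 1.78 ± 0.226 CPM in females and 2.43 ± 0.450 CPM in males (by edgeR, adjusted p = 0.627), and it shares 63 bases of exon with Spn42Dc.

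A further group of serpins was found almost wholly in male replicate 3. Spn28F, Spn38F and Spn75F, described as seminal fluid proteins, had 96, 168 and 44 counts there, while the other 5 libraries together had 0, 1 and 0. Spn77Bb, Spn77Bc, Spn47C and Spn28B had 39, 111, 20 and 33 counts in male replicate 3 and 2, 15, 0 and 12 in the other 5 libraries together. Acp76A, an accessory gland serpin outside the naming scheme that was picked after its values were seen, had 55 counts there and 4 elsewhere. These 8 genes each had over 70% of their counts in a library that held 20.6% of all counts. The accessory gland markers SP, Acp36DE, Acp26Aa, Acp53Ea and Acp62F moved with them, at 101, 513, 120, 288 and 111 counts in male replicate 3. For comparison, Spn55B had 26.7% and Spn27A 29.9% of their counts in that library. None of the 8 passed the filter, and none is given as a difference between the sexes.

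**Figure D4:**
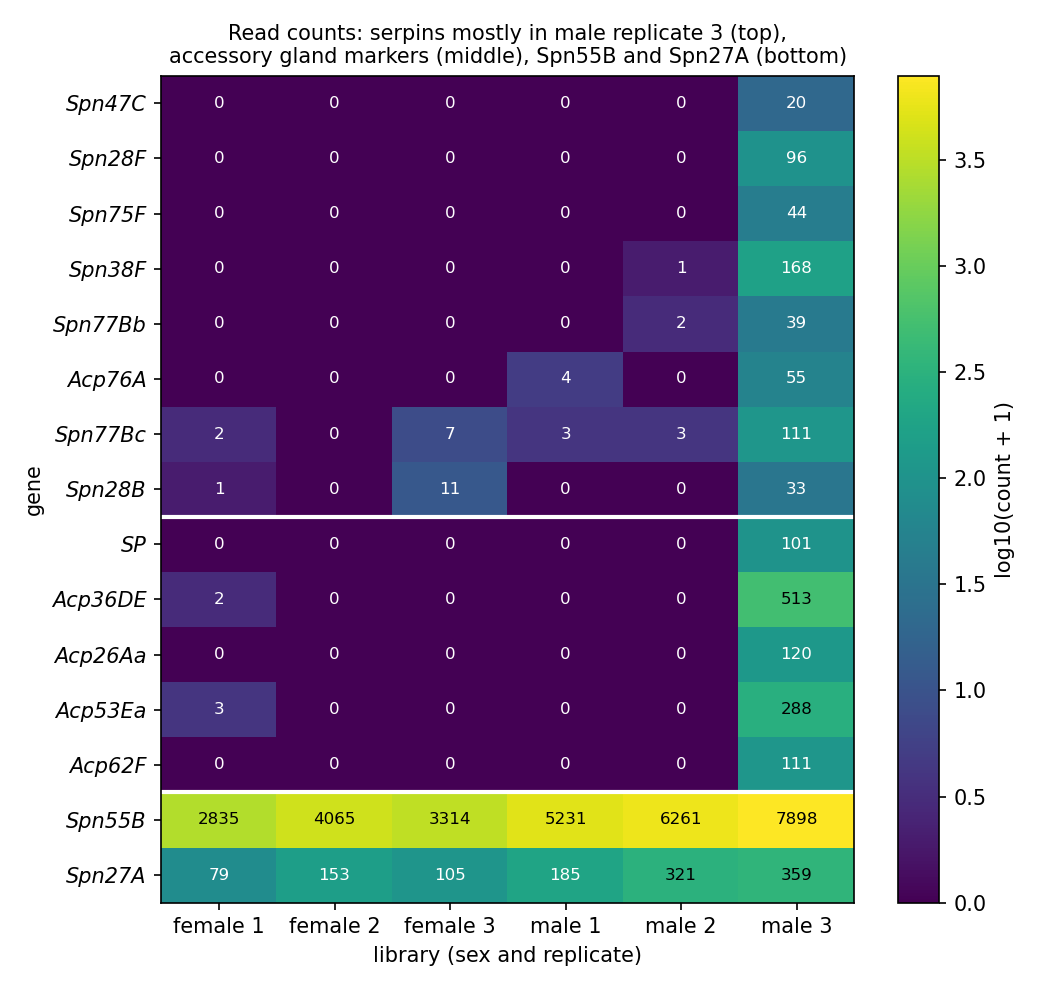
Read counts per library, with colour as log10(count + 1), for the 8 serpins with over 70% of their counts in male replicate 3 (top), 5 accessory gland markers (middle) and Spn55B and Spn27A (bottom); columns are the 3 female and then the 3 male libraries. The upper blocks are lit in male replicate 3, whereas Spn55B and Spn27A have counts in every library.

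Genes of the protease cascades, of melanization and of the Toll pathway were examined through 4 further lists. Of the set, Spn27A, Spn28Dc, Spn77Ba, nec and Spn88Ea are described above as acting there. No such role is given here for Spn55B. Of 13 genes of the protease cascade above Toll, 12 were in the tables and 5 were tested. Of these, 0 were called higher in females, 1 higher in males and 4 in neither direction, with a median log2 value of -0.09. Across all tested genes, 3.87% were called higher in females and 5.53% higher in males, with a median of -0.02. The gene called was grass, a clip-domain protease of the cascade that senses fungi and Gram-positive bacteria. It stood at 0.881, 1.14 and 0.517 CPM in females, against 8.40, 9.91 and 8.57 CPM in males. The sexes did not come near each other (log2 -3.32 ± 0.32, edgeR adjusted p = 0.000142, 9.99-fold higher in males), and all 13 alternatives kept the call.

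Hayan, a protease that activates Toll and phenoloxidase, had the opposite order, with 2.22, 2.67 and 2.62 CPM in females and 1.05, 0.127 and 0.156 CPM in males. It did not pass (log2 2.57 ± 0.73, edgeR adjusted p = 0.0522), but DESeq2 (adjusted p = 0.00269) and limma-voom (0.0194) called it higher in females. Without male replicate 1, the highest male library, Hayan was called higher in females with a log2 value of 4.18 (edgeR adjusted p = 0.00308). No other fit that left out a library called it (log2 2.13 to 2.67, edgeR adjusted p of 0.0950 to 0.156). In all, 7 of 12 alternatives did not call Hayan. An antisense RNA covers 36.2% of the exon length of Hayan on the other strand, so its counts could include that RNA. SPE, the protease that cleaves the Toll ligand, had 0.641 ± 0.169 CPM in females and 1.72 ± 0.746 CPM in males (by edgeR, adjusted p = 0.176). ea, the target of Spn27A in the embryo, had 9, 29 and 0 counts in females and 7, 23 and 6 in males (adjusted p = 0.935). psh, the protease that nec restrains, had 4, 8 and 0 counts in females and 2, 1 and 17 in males and was not tested.

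Of 10 melanization genes, 8 were in the tables and 6 were tested, and 0 were called in either direction by edgeR, DESeq2 or limma-voom (1 had an unadjusted edgeR p under 0.05). By edgeR, 3.87% of all tested genes were called higher in females and 5.53% higher in males, and 21% had an unadjusted p under 0.05. The median log2 value of the tested genes was -0.97, beside -0.02 over all genes tested. The leading gene was MP1, a protease of the phenoloxidase cascade, with 8.88 ± 2.53 CPM in females and 13.6 ± 1.20 CPM in males (log2 -0.56 ± 0.21, edgeR adjusted p = 0.150). Vps24 lies on the opposite strand over 100% of its exon length, so this value is uncertain. The phenoloxidase gene PPO2 had 2, 2 and 16 counts in females and 10, 8 and 48 in males, and PPO3 had 1, 0 and 14 counts in females and 18, 12 and 21 in males. The sexes overlapped for PPO2 (log2 -1.37 ± 1.01, edgeR adjusted p = 0.520). The log2 value of PPO2 was -2.99 without female replicate 3 and -0.27 without male replicate 3. Ddc, which makes dopamine for melanin, had a log2 change of 1.02 ± 0.76 (edgeR adjusted p = 0.525), but one of 0.08 without female replicate 2 and 1.76 without male replicate 1.

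Of 12 Toll signalling genes, 11 were tested. Of these, 0 were called higher in females, 1 higher in males and 10 in neither direction, with a median log2 value of -0.0011. Across all tested genes, 3.87% were called higher in females and 5.53% higher in males, and the median was -0.02. The gene called was cact, the inhibitor that keeps the Toll transcription factors in the cytoplasm. cact stood at 64.9, 60.4 and 68.5 CPM in females, against 126, 108 and 80.7 CPM in males (log2 -0.64 ± 0.16, edgeR adjusted p = 0.0243). Its sexes did not overlap, and fzy shares 62 bases of its exons on the opposite strand. The call of cact was lost in 5 of the 6 fits that left out a library (edgeR adjusted p of 0.0675 to 0.114, without female replicates 1, 2 or 3 or male replicates 1 or 2). Its log2 value stayed between -0.79 and -0.47 in these 6 fits. PGRP-SD, a bacterial sensor, had a log2 change of -1.75 ± 0.53 (edgeR adjusted p = 0.0643). DESeq2 called it (adjusted p = 0.0125) and limma-voom did not (adjusted p = 0.126). In all, 11 of 12 alternatives did not call PGRP-SD. Myd88, the Toll adaptor, had 122 ± 17.7 CPM in females and 107 ± 8.88 CPM in males (by edgeR, adjusted p = 0.334). Tl, the receptor, was low in both sexes, with 0.961 ± 0.586 CPM in females and 0.793 ± 0.292 CPM in males.

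Antimicrobial peptide and Bomanin genes, listed here as possible Toll targets, had few counts where measured. Whether each of them responds to Toll in the midgut was not tested. Drs, the antifungal peptide gene most used as a readout of Toll, matched no identifier and was not analysed here. Of 21 genes, the other 20 were in the tables, 17 had at least 1 count and 6 were tested, with 0 called in either direction by edgeR, DESeq2 or limma-voom (0 had an unadjusted edgeR p under 0.05). The 20 genes summed to 2.37 to 5.17 CPM in females and to 2.88, 4.40 and 12.2 CPM in male replicates 1 to 3. The median log2 value of the tested genes was -0.13, beside -0.02 over all tested genes. Of all tested genes, edgeR called 3.87% higher in females and 5.53% higher in males, and 21% had an unadjusted p under 0.05. Of the 469 counts in male replicate 3, 168 fell on Drsl5, which had 0 counts in each female library and 1 and 3 in the other male libraries. BomS6, BomBc2 and Drsl2, the tested genes with the smallest p, had log2 fold changes of -1.98 ± 1.05, -1.31 ± 1.05 and 0.67 ± 0.82 (edgeR adjusted p of 0.329, 0.567 and 0.743). Single libraries moved these values: BomS6 was -4.47 without female replicate 1 and -1.38 without female replicate 2, and BomBc2 was -2.22 and -0.71 in the same fits. BomBc2 overlaps BomS4 on the opposite strand.

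**Figure D5:**
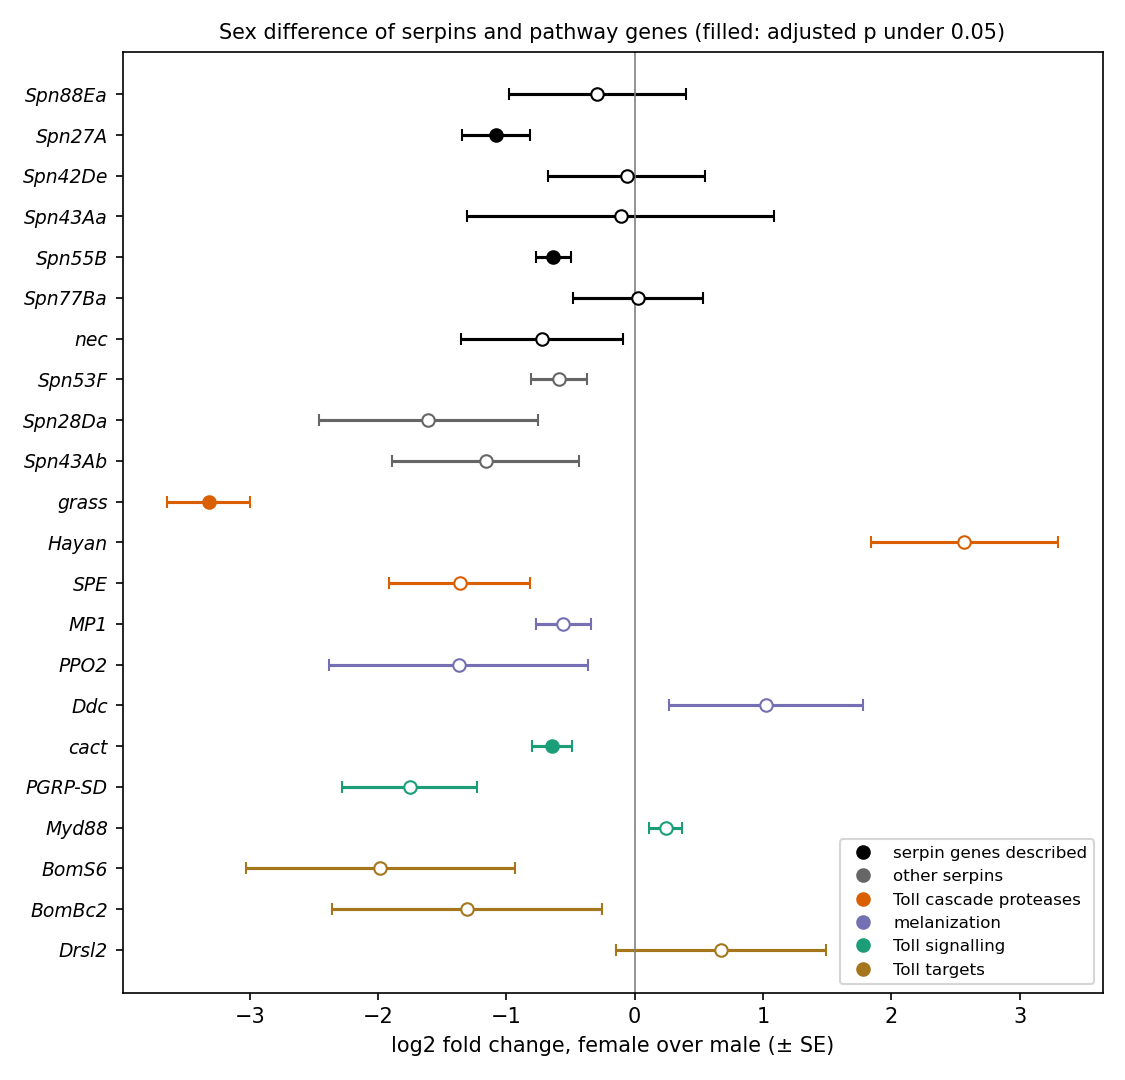
Log2 fold change of female over male (± SE, edgeR) for the 7 tested serpins of the set and for the 3 tested genes with the smallest p of each other list, with filled points at an adjusted p under 0.05. Spn27A, Spn55B, grass and cact are filled and lie below 0, and Hayan lies above 0 without passing.

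Several serpins of the set are known from blood cells and fat body, and some tissues adhere to the dissected gut, so markers were read beside Spn55B and Spn27A. The 6 hemocyte markers summed to 7.30 to 13.6 CPM in females and 9.37 to 10.8 CPM in males, with He at 0 in every library and 0 of 4 tested genes called. Of the fat body markers, Fbp1 was at 0 in every library, Lsp2 had at most 10 counts, and apolpp had 12.7 ± 10.8 CPM in females and 12.9 ± 6.41 CPM in males. The yolk protein genes were the rest of that list and carried its excess in females, which apolpp did not share. The whole list summed to 54.8 to 295 CPM in females and 8.10 to 28.7 CPM in males. Its 4 tested fold changes lay above 0 (median log2 4.47), with 0 called by edgeR, 2 by DESeq2 and 1 by limma-voom. Of the Malpighian tubule markers, Uro had 4 counts in all, and the 3 together summed to 2.28 to 3.19 CPM in females and 4.02 to 6.59 CPM in males, in the direction of Spn27A (0 of 2 tested called). The sum of the 5 enteroendocrine markers was also lower in females, with 301 to 314 CPM in females and 407 to 457 CPM in males. By gene, 4 fold changes lay below 0 and 1 above, and 3 genes were not called. Tk and AstA, with log2 values of -0.47 and -0.73, were called higher in males (by edgeR, adjusted p = 0.0335 and 0.0384). Across all tested genes, 5.53% were so called and 3.87% were called higher in females. The 2 tracheal markers summed to 8.53 to 13.6 CPM in females and 6.90 to 11.7 CPM in males, and the 5 visceral muscle markers to 411 to 1126 CPM in females and 629 to 1271 CPM in males, with none called in either list. N, the single matched marker of progenitor cells, had 4.53 ± 1.66 CPM in females and 7.45 ± 0.491 CPM in males (by edgeR, adjusted p = 0.150). The ovary markers osk, Cp36 and Vml had at most 9 counts in any library. The part of these cells and tissues in the levels of Spn55B and Spn27A was not tested.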

How the data were processed

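The files hold the authors' deposited counts: whole-number reads per gene, not normalized, 1 table per library. TopHat2 2.0.11, HTSeq and build dm3 are named, per the submitters' processing notes; the sources used here give neither the strand setting, the handling of multi-mapping reads nor the annotation release. Library kits were strand-marking mRNA kits with 500 ng of RNA and paired reads of 100 bases, per the labels. Symbols came from a FlyBase name table (15002 identifiers matched). Arms, exon lengths and overlaps came from the Ensembl release 115 annotation of BDGP6; since builds differ, no coordinates are given and lengths are approximate.

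Genes were kept with filterByExpr (minimum count 10, minimum total 15; 8941 genes), scaled with TMM and tested by quasi-likelihood in edgeR 4.0.16 under R 4.3.3 (sex alone, robust), two-sided, with Benjamini-Hochberg adjustment over all genes at 0.05. Each SE was computed back from the F statistic of a gene (log2 fold change over root F) and so carries the same information as its p. CPM uses plain library totals. Alternatives were RLE factors, no scaling, 2 filters, DESeq2 1.42.0, limma-voom 3.58.1, a replicate block, leaving out each library and a threshold of 0.01.

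Replicate pairs differed by at least 29.8 in chi-square per degree of freedom, so each library counted once. Steps were tested on simulated data, where edgeR called 24% of 1.5-fold, 58% of 2-fold and 94% of 4-fold changes, with 8 false calls. Uncalled genes may thus still differ. The named genes are all measured members, detected other serpins, and of each list the 3 tested genes with the smallest p and every called gene; ea, psh, PPO3, Tl, Drsl5, Acp76A and marker genes not moving with a member were picked after their values were seen. Members and lists were chosen with earlier results of these data known.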

Additional observations from a re-analysis of the deposited data

How the results depend on the processing

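Spn55B and Spn27A stayed lower in females in all 13 alternatives each, and lost their edgeR call at an adjusted p under 0.01 and in fits that left out a library, at the values given above, and in no other alternative. The count of the set higher in males was 2 as reported, 0 at an adjusted p under 0.01 and 0 to 2 when libraries were left out; without a library of either sex the number of samples falls to 5. Under the same settings other counts moved as follows. Other serpins higher in males, 0 as reported, ranged from 0 to 1. Toll cascade proteases higher in females, 0 as reported, were 1 (Hayan) with no filter beyond 1 count, in DESeq2, in limma-voom and with the replicate block, and 0 to 1 with libraries left out. Melanization genes higher in males ranged from 0 to 1, the 1 being ple without female replicate 2. Toll signalling genes higher in males, 1 as reported, were 2 in DESeq2, 0 with the replicate block, 0 at an adjusted p under 0.01 and 0 to 1 with libraries left out.

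Same-numbered female and male libraries deviated with correlations of -0.12, -0.18 and -0.09, which show no pairing by number. These values cannot tell whether same-numbered pools were reared or prepared together. With the replicate as a block, 676 genes were called in place of 840. Over all genes, the calls were 346 (female higher) and 494 (male higher) as reported, against 552 and 657 in DESeq2, and 412 passed an adjusted p under 0.01. With libraries left out, these calls ran from 164 to 419 and from 332 to 513, the lowest without male replicate 2 for females and without female replicate 1 for males. The block kept 2 serpins of the set as higher in males and gave cact an edgeR adjusted p of 0.0543.

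Signs that turned were of uncalled genes. With libraries left out, log2 fold changes ran from -0.91 to 0.19 for Spn88Ea, -0.42 to 0.32 for Spn42De, -0.91 to 0.48 for Spn43Aa, -0.17 to 0.34 for Spn77Ba and -0.25 to 1.997 for Drsl2. Spn77Ba was -0.037 with no scaling, -0.012 in limma-voom and -0.0056 with the replicate block, against 0.02. For these turns the cause was not tested. A filter of 5 CPM in 3 libraries removed the 5 rarer tested serpins of the set, so no value exists for them there.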
